A study of Mus musculus with 6 samples.

Results

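The genes described here are members of serpin clade A, a family of proteins that the liver secretes into plasma, followed in mouse liver before pregnancy, at day 21 of pregnancy and at day 7 postpartum. Of 9 genes listed by symbol, 7 had an array probe set that the platform annotation assigns to a single gene: Serpina6, Serpina7, Serpina3n, Serpina11, Serpina10, Serpina12 and Serpina4-ps1. Serpina3k and Serpina3m, the other 2, had none and were not analysed here. These 7 are among 18193 genes measured, each read from its brightest probe set on average. The animals were CYP2D6-humanized mice, C57BL/6 carrying the human CYP2D6 gene as a transgene. All groups carry it, and no mice without it were among the samples. Each of the 3 stages had 2 biological replicates, and each replicate was read on 1 Affymetrix array. The labels name neither the promoter that drives the transgene nor the age of the mice.

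Serpins are inhibitors that trap a protease when it cleaves their exposed reactive loop, and the protease stays covalently bound. Some family members have lost inhibition and carry small molecules instead: corticosteroid-binding globulin, the product of Serpina6, carries glucocorticoids and progesterone, and thyroxine-binding globulin, the product of Serpina7, carries thyroid hormone. Most clade A genes lie in a cluster that grew by gene duplication, more so in rodents than in primates, and hepatocytes are the main source of their products in plasma.

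In the RefSeq gene table for assembly GRCm38.p6, 28 clade A genes and pseudogenes follow each other on chromosome 12, and 8 of the 9 listed genes lie there; Serpina7 is on chromosome X. Serpina10 and Serpina6 are adjacent at one end of the cluster, and Serpina3n is the last at the other. Serpina11, Serpina9, Serpina12, Serpina4-ps1 and Serpina5 stand in that order in between. RefSeq lists Serpina4-ps1 as a transcribed pseudogene, and the other listed genes as protein coding. No genome build is named for the arrays, so the table served for gene order and for the promoters printed next. Upstream sequence was in the RefSeq promoter table for 4 of the 7 measured genes. Those of Serpina11 and Serpina3n are shown because both genes rose in pregnancy and fell postpartum, and that of Serpina12 because this gene of the same cluster passed no test. Each run is the 250 bases before the annotated start, 5′ to 3′ on the gene's strand in GRCm38.p6, with capitals where a searched motif matched. Where the table lists more than 1 start for a gene, the outermost was taken.
Serpina11, chr12:103989958-103990207, minus strand: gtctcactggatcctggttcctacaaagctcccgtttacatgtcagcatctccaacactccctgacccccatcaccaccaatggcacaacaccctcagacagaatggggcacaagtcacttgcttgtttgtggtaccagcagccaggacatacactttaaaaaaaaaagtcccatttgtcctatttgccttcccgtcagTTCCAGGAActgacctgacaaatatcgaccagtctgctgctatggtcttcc
Serpina3n, chr12:104406458-104406707, plus strand: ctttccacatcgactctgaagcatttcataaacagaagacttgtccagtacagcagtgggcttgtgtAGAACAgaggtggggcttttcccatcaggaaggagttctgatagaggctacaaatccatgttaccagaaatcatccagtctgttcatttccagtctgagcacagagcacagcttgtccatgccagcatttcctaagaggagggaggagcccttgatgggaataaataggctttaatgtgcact
Serpina12, chr12:104044444-104044693, minus strand: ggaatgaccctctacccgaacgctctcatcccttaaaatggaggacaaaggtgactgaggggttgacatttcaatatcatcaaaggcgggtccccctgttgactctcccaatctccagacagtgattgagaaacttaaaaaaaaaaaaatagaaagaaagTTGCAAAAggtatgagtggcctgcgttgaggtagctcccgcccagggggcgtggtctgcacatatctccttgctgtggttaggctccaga

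The 7 motifs searched on both strands were TTCNNNGAA of the STAT factors, GTTAAT of HNF1, CAAAGT of HNF4, TTGCNNAA of C/EBP, AGAACA of the glucocorticoid receptor, and, by name, the direct repeat of the nuclear receptor site with 1 base between its copies and the palindromic oestrogen response element. The capitals in Serpina11 mark a STAT match, TTCCAGGAA, from 51 to 43 bases before the start. Those in Serpina3n mark a glucocorticoid receptor match, AGAACA, from 183 to 178 bases before the start, and those in Serpina12 a C/EBP match, TTGCAAAA, from 90 to 83. The 250 bases before Serpina7 held an HNF1 match (57 to 52 bases before the start) and a C/EBP match (30 to 23). None of these matches overlapped another. Among 32851 mouse promoters of the same length, 7.02% held the STAT motif, 6.43% the HNF1, 12.6% the HNF4, 9.56% the C/EBP and 16.1% the glucocorticoid receptor motif. The direct repeat was in 0.0335% of them and the oestrogen response element in 0.0639%. A match describes letters in the window and is not evidence that a factor binds there.

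Values are log2 expression, on which a difference of 1 is a doubling. Array medians lay between 5.09 and 5.15, and replicate arrays correlated across genes at 0.994 to 0.997. The liver label was checked against hepatocyte markers: 8 of 9 measured stood at 12.7 or higher on every array, and the probe set of Ass1 was dimmer. Markers of other cells were read beside the serpins. In pregnancy, 3 of 10 endothelial, 2 of 10 Kupffer cell and 1 of 10 stellate cell markers fell and none (0) rose. Of all genes, 8.25% fell and 5.46% rose. Differences were above 0 for 2, 1 and 1 markers of these lists. Among them were endothelial Vwf (1.15 ± 0.371) and Kupffer cell Marco (0.66 ± 0.202), neither called. Of 8 neutrophil markers, 2, S100a9 and Mpo, rose with none (0) falling. The mean log2 level of the neutrophil markers was 5.23 to 5.33 on the pre-pregnancy arrays, 5.62 to 5.66 on the pregnant and 5.30 to 5.34 on the postpartum arrays. S100a9 stood at 6.36 to 7.16 over the arrays, but Mpo was near background at 4.27 to 4.82. Elane, Ngp, Camp and Ltf were also near background, under 5.51 on every array. The mean thus includes dim genes, and its size is no measure of neutrophil number. Cholangiocyte and placental markers gave no calls by limma in any comparison (0 of 7 each). In pregnancy 1 and 0 of them had an unadjusted p under 0.05. Postpartum against pregnancy Sctr, Epcam, Sox9 and the placental Ctsj did, and against pre-pregnancy Sox9 and the placental Prl8a2. Of 9 pancreatic acinar markers 1 rose and 1 fell in pregnancy. Cela3b rose 8.2-fold, the 3rd largest rise of all genes, and Cela1 fell 2.27-fold. Cela3b was 7.04-fold lower postpartum than in pregnancy. The part of all these cell types in the serpin results was not tested. In whole liver, fewer cells of a type and less RNA per cell cannot be told apart.

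Late pregnancy was first compared with the liver before pregnancy, to ask which carriers and inhibitors differ in late gestation. The glucocorticoid carrier gene Serpina6 rose 4.16-fold, the acute phase inhibitor gene Serpina3n 2.02-fold and Serpina11 1.51-fold. The kallistatin pseudogene Serpina4-ps1 fell 7.46-fold. Serpina7, Serpina10 and Serpina12 did not pass the test. Of the 7 genes, 3 thus rose and 1 fell by limma at an adjusted p under 0.05, where 5.46% of all 18193 genes rose and 8.25% fell (13.7% in either direction). The pregnant arrays lay wholly above the pre-pregnancy arrays for 5 of the 7, against 33.6% of all genes, and wholly below for 1, against 26%. The median difference of the 7 was 0.33, and that of all genes 0.045. The 7 were chosen with earlier results of these data known, so these contrasts with all genes are no test of the family.

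**Figure D1:**
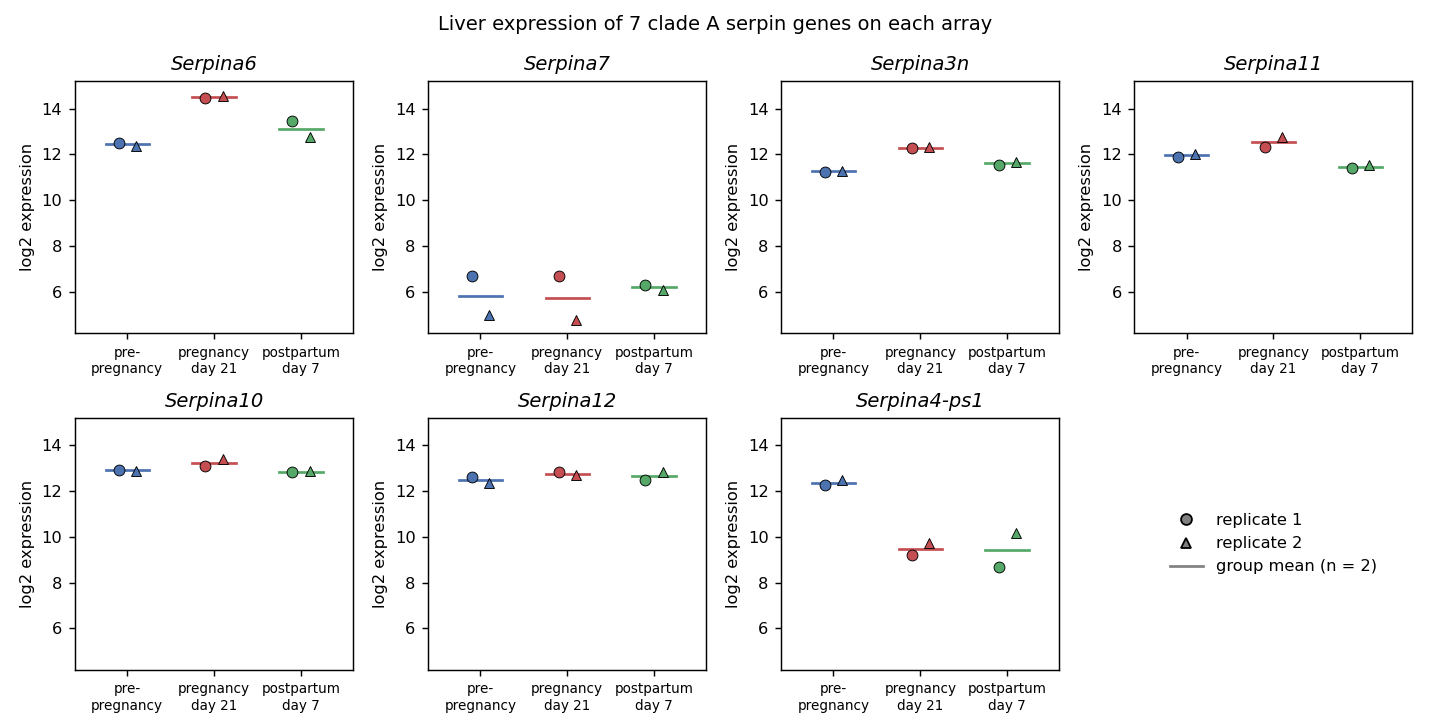
Log2 expression (y axis) of the 7 measured clade A serpin genes on each of 6 arrays, by stage (x axis); circles are replicate 1, triangles replicate 2 and lines the mean of 2 replicates. Serpina6 and Serpina3n are highest on both pregnant arrays, Serpina4-ps1 is high before pregnancy only, and the replicates of Serpina7 stand apart before and in pregnancy.

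Serpina6 stood at 12.49 and 12.37 on the pre-pregnancy arrays, 14.44 and 14.53 on the pregnant arrays and 13.47 and 12.77 on the postpartum arrays. Both pregnant arrays were above all others, and both postpartum arrays were above both pre-pregnancy arrays, without overlap. The rise in pregnancy was 2.06 ± 0.205 (SE, n = 2 per group, limma adjusted p = 0.00193), the 18th largest among all genes. It stood at 2.00 to 2.12 with each array left out in turn and passed the test 6 of 6 times. The pregnant values lie close to the top of the arrays' range, whose highest value on each array was at least 14.91, and whether this limits the size of the rise was not tested. From pregnancy to day 7 postpartum Serpina6 fell 2.58-fold (-1.36 ± 0.205, adjusted p = 0.0173). That call ended when either array from before pregnancy (0.0599 each) or pregnancy replicate 2 (0.0708) was left out. It also ended with only the 2 groups compared (0.0599) and under a trended, robust variance (0.0566). Postpartum arrays were 0.69 ± 0.205 higher than before pregnancy (adjusted p = 0.0849), which did not pass. This difference was 0.34 without postpartum replicate 1 and 1.04 without postpartum replicate 2, where it passed (adjusted p = 0.0272).

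Serpina7, the gene of the thyroid hormone carrier, passed no test, and its replicates before and in pregnancy differed more than its stage means. It stood at 6.67 and 4.99 on the pre-pregnancy arrays, 6.67 and 4.77 on the pregnant arrays and 6.30 and 6.09 on the postpartum arrays. Replicate 1 was higher than replicate 2 at each stage, by 1.68, 1.90 and 0.21. The groups overlapped in every comparison. The values of 4.99 and 4.77 were near background, under 5.51. Both postpartum values also lay below the median of all genes (6.38). The difference was -0.11 ± 0.651 in pregnancy (95% interval -1.62 to 1.40, adjusted p = 0.925). It was 0.47 postpartum against pregnancy (-1.03 to 1.98) and 0.36 postpartum against pre-pregnancy (-1.14 to 1.87). These intervals allow changes of either sign of more than 2-fold. Over the arrays left out, the pregnancy difference ran from -1.06 to 0.84, so its direction was not settled.

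Other plasma carriers of these hormones were not called in pregnancy. Ttr, transthyretin, which carries thyroxine and retinol-binding protein, differed by -0.10 (95% interval -0.33 to 0.13, adjusted p = 0.535), and Alb, albumin, by 0.04 ± 0.0987 (adjusted p = 0.789). Both stand near the top of the arrays' range. In pregnancy 5.46% of all genes rose and 8.25% fell. Of 13 measured carriers of hormones, vitamins and growth factors, these among them, 3 rose and 0 fell, with a median difference of 0.20: Tcn2, the cobalamin carrier transcobalamin (0.58 ± 0.110), Igfbp2 (0.55 ± 0.138) and Apom, which carries sphingosine 1-phosphate (0.39, 95% interval 0.16 to 0.62). With each of the 6 arrays left out in turn, Tcn2 kept its call 4 times, Igfbp2 2 times and Apom 0 times. Postpartum against pre-pregnancy Tcn2 was also higher (0.52 ± 0.110, adjusted p = 0.0321), a call kept 2 of 6 times.

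Serpina3n, an inhibitor of serine proteases such as granzyme B and cathepsin G whose gene is induced by inflammation, stood at 11.25 and 11.29 on the pre-pregnancy arrays, 12.27 and 12.30 on the pregnant arrays and 11.55 and 11.67 on the postpartum arrays. The stages formed 3 separate levels with no overlap, and the replicates of a stage differed by 0.12 or less. Its rise was 1.01 ± 0.101 (adjusted p = 0.00193) and kept its call with each array left out (0.99 to 1.03). Its fall postpartum was -0.68 ± 0.101 (adjusted p = 0.0173), which held in 1 of 6 such fits, with adjusted p from 0.0403 to 0.106, and not with only the 2 groups compared (0.0513). Postpartum values were 0.34 ± 0.101 above those before pregnancy (adjusted p = 0.0853), not called there but called with a trended, robust variance (0.0360). Serpina3n has close relatives in the cluster, Serpina3k and Serpina3m among them, and how far its single probe set also reads their transcripts was not tested.

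Serpina11 went up in pregnancy and ended lowest postpartum. It stood at 11.87 and 12.03 on the pre-pregnancy arrays, 12.34 and 12.75 on the pregnant arrays and 11.40 and 11.52 on the postpartum arrays, again with no overlap between stages. The rise of 0.59 ± 0.150 was close to the threshold (adjusted p = 0.0379). It kept its call in 1 of 6 fits with an array left out (0.39 to 0.80, adjusted p 0.0182 to 0.222) and lost it with only the 2 groups compared (0.0601). Without pregnancy replicate 2 the log2 rise was 0.39 rather than 0.59. The fall postpartum, -1.08 ± 0.150 (2.12-fold lower, adjusted p = 0.0133), was called in 4 of 6 such fits and lost without either postpartum array (0.0839 and 0.0614). Against pre-pregnancy, postpartum values were lower on both arrays (-0.49 ± 0.150, adjusted p = 0.0920), which was not called. It passed with the replicate block (0.0488), a trended, robust variance (0.0477) and only the 2 groups compared (0.0426).

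Serpina10, protein Z-dependent protease inhibitor, which blocks activated factor X on membranes together with protein Z and also activated factor XI, was at 12.94 and 12.89 on the pre-pregnancy arrays, 13.09 and 13.39 on the pregnant arrays and 12.83 and 12.86 on the postpartum arrays. Both pregnant arrays lay above the others, with no overlap. The difference in pregnancy was 0.33 ± 0.123 (95% interval 0.04 to 0.61, adjusted p = 0.119), and that postpartum against pregnancy -0.40 ± 0.123 (adjusted p = 0.129). Neither was called; under a trended, robust variance each passed (adjusted p = 0.0460 and 0.0466). Serpina12, vaspin, an inhibitor of kallikrein 7 that is also known as an adipokine, was at 12.61 and 12.34 on the pre-pregnancy arrays, 12.82 and 12.70 on the pregnant arrays and 12.50 and 12.83 on the postpartum arrays. Its difference in pregnancy was 0.28 ± 0.147 (95% interval -0.06 to 0.63, adjusted p = 0.230), and its postpartum arrays overlapped those of both other stages.

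Serpina4-ps1, a transcribed pseudogene related to the kallistatin gene of other mammals, showed the largest difference of the 7. It stood at 12.26 and 12.48 on the pre-pregnancy arrays, 9.19 and 9.75 on the pregnant arrays and 8.70 and 10.18 on the postpartum arrays. Pregnant and postpartum arrays overlapped each other and were all below both pre-pregnancy arrays. The fall in pregnancy was -2.90 ± 0.416 (adjusted p = 0.00623), the 9th largest fall of all genes. Postpartum it was 7.62-fold lower than before pregnancy (-2.93 ± 0.416, adjusted p = 0.00960), the 2nd largest fall there, and it differed from pregnancy by -0.03 ± 0.416 (adjusted p = 0.974). These comparisons share the pre-pregnancy arrays. Without pre-pregnancy replicate 1 or 2 the pregnancy call was lost (differences -3.01 and -2.79, adjusted p = 0.0671 and 0.0530), as was the postpartum call (-3.04 and -2.82, 0.104 and 0.0716). A trended, robust variance also ended both calls (0.0624 and 0.0824). The postpartum difference was -2.19 without postpartum replicate 1 and -3.67 without replicate 2, so the fold moved by over 1.5 times.

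Serpina4-ps1 has 3 probe sets, Serpina12 has 2, and the other 5 genes have 1 each. The other Serpina4-ps1 probe sets fell in pregnancy as well (-3.33 ± 0.470 and -2.73 ± 0.384, limma over all probe sets, adjusted p = 0.00526 for both). Postpartum both were also lower than before pregnancy (adjusted p = 0.0106 and 0.00711). In all 3 probe sets postpartum replicate 2 was above replicate 1, and both were below the pre-pregnancy arrays. The other Serpina12 probe set was near background (4.22 to 4.71 over the 6 arrays) and showed no call.

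**Figure D2:**
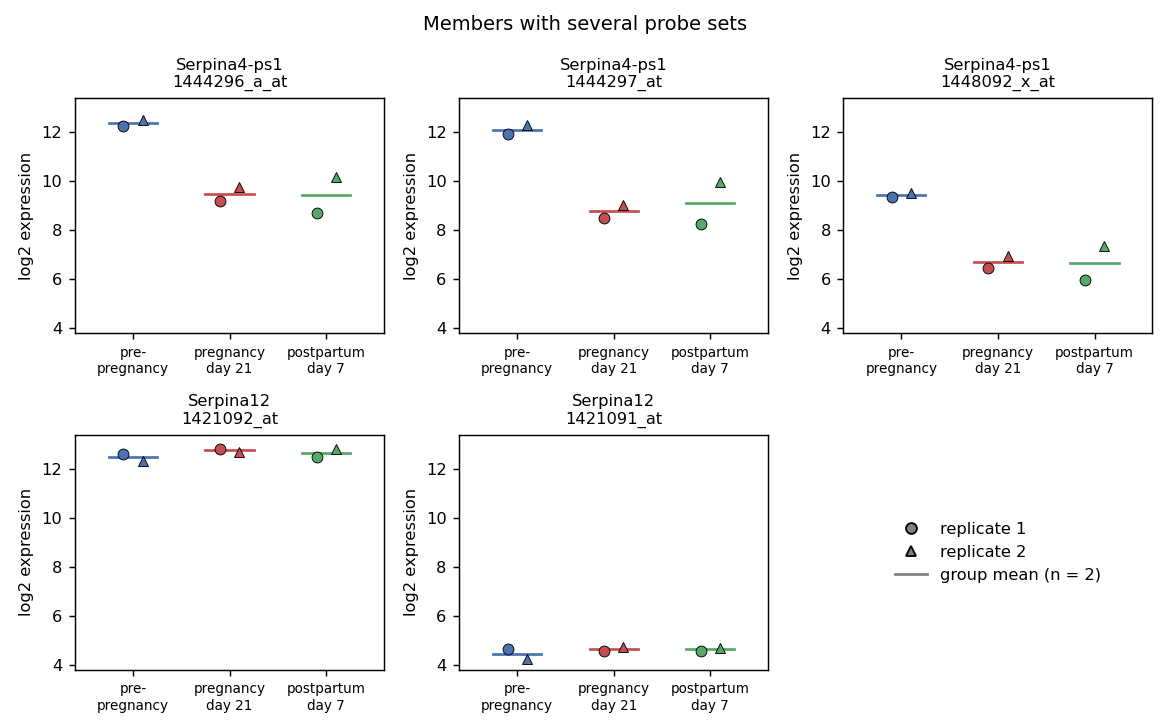
Log2 expression (y axis) for each probe set of Serpina4-ps1 (3 panels) and Serpina12 (2 panels) by stage (x axis); circles are replicate 1, triangles replicate 2 and lines the mean of 2 replicates. All 3 Serpina4-ps1 probe sets fall after the pre-pregnancy stage, and the dimmer Serpina12 probe set stays near 4.22 to 4.71.

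After birth, 3 of the 7 genes, Serpina6, Serpina11 and Serpina3n, fell between pregnancy and day 7 postpartum and 0 rose, where 0.879% of all genes fell and 2.41% rose (3.29% in either direction). The postpartum arrays lay wholly below the pregnant arrays for 4 of the 7, against 25% of all genes, and wholly above for 0, against 25.1%. The median difference of the 7 was -0.40, and that of all genes -0.01. The rises of the 3 genes in pregnancy and their falls postpartum share the pregnant arrays. Because the 7 were chosen with earlier results known, these contrasts with all genes are again no test of the family. The 3 falls were not equally firm: 1 to 3 of them passed when an array was left out, and 1 with only the 2 groups compared. At day 7 postpartum against pre-pregnancy, 1 of 7 fell, Serpina4-ps1, and 0 rose, where 3.75% of all genes fell and 3.91% rose (7.66% in either direction). The postpartum arrays lay wholly above the pre-pregnancy arrays for 2 of the 7 and wholly below for 3, against 30% and 22.6% of all genes. Of the 6 not called there, Serpina6 and Serpina3n were above their pre-pregnancy arrays on both postpartum arrays, and Serpina11 and Serpina10 below.

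**Figure D3:**
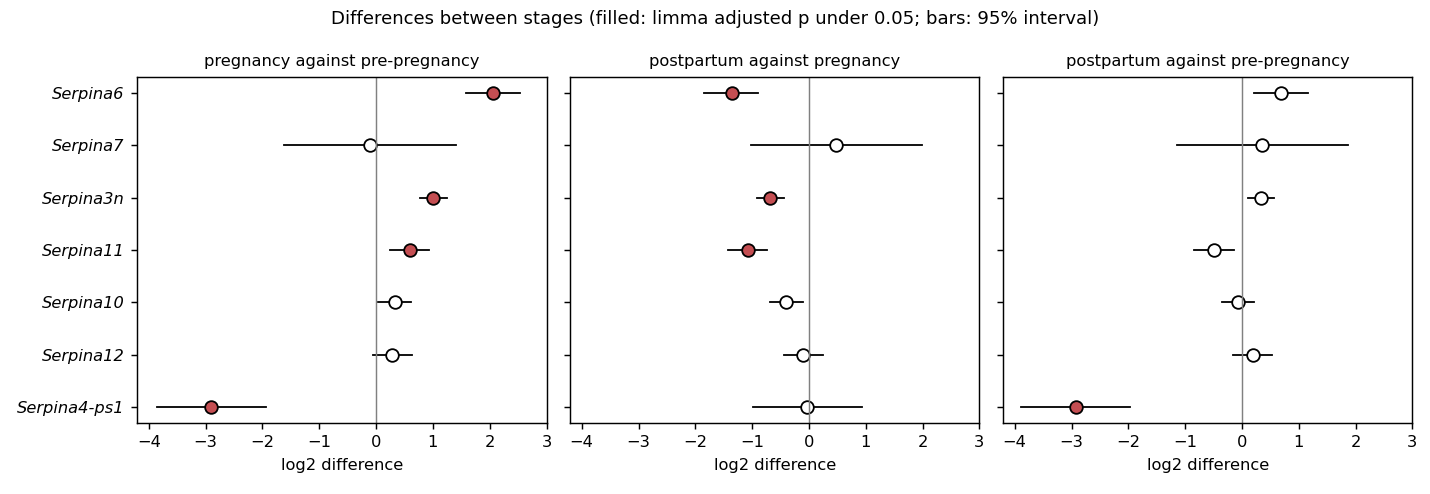
Log2 difference (x axis) of each of the 7 genes (rows) in the 3 comparisons (panels), as the limma estimate with its 95% interval; filled points passed an adjusted p of 0.05. Serpina6, Serpina3n and Serpina11 lie to the right in pregnancy and to the left postpartum, and Serpina4-ps1 lies near -2.9 in both comparisons with pre-pregnancy.

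The rest of clade A was read next. Of all genes, 5.46% rose and 8.25% fell in pregnancy (13.7% in either direction). Of 8 other clade A genes measured, of 18 listed, 1 rose and 0 fell in that comparison, a count near that share, with a median difference of 0.06. This was Agt, angiotensinogen, a serpin without inhibitory activity and the precursor of angiotensin (0.56 ± 0.115, adjusted p = 0.0195, kept in 3 of 6 fits with an array left out). The alpha-1-antitrypsin genes Serpina1b (14.68, 14.67, 14.75, 14.76, 14.71 and 14.68 in stage order) and Serpina1c differed by 0.08 ± 0.0960 and 0.04 ± 0.0974 in pregnancy. They stand near the top of the range, and near-identical copies of these genes may share their probes. Serpina9, which lies between Serpina11 and Serpina12, was at 8.06 and 7.55 on the pre-pregnancy arrays, 6.31 and 6.98 on the pregnant arrays and 5.22 and 6.78 on the postpartum arrays. It was not called in any comparison (-1.16 ± 0.459, adjusted p = 0.132 in pregnancy, and -1.80 ± 0.459, adjusted p = 0.0548 postpartum against pre-pregnancy). Serpina3a, near background with means of 5.56 before pregnancy and 4.83 postpartum, was called lower in that comparison (adjusted p = 0.0212, 3 of 6 fits). In the order Serpina11, Serpina9, Serpina12 and Serpina4-ps1, adjacent measured genes gave differences of 0.59, -1.16, 0.28 and -2.90 in pregnancy. Serpina6 rose 2.06 beside Serpina10 at 0.33. Of 15 measured serpins of other clades, with a median difference of 0.01, 2 rose, Serpinf2, the plasmin inhibitor alpha-2-antiplasmin (0.73 ± 0.112, adjusted p = 0.00768), and Serpinb5 near background, and 2 fell, Serpinb1a and the collagen chaperone Serpinh1 (-0.57 ± 0.107). With each array left out in turn, these 4 calls held in 5, 3, 6 and 3 of 6 fits. Serpinc1, antithrombin, differed by 0.01 ± 0.0980. Serpinb1a, an inhibitor of neutrophil proteases, had a mean of 5.74 before pregnancy and was near background at 4.63 and 4.51 in pregnancy, so the size of that fall is not given. Postpartum it was at 6.85 and 7.05, above both other stages (adjusted p = 0.000587 against pregnancy and 0.00454 against pre-pregnancy, 6 of 6 fits each), and Serpinh1 was lower than before pregnancy (-0.58 ± 0.107, 2 of 6).

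Target proteases of these inhibitors, and the cofactor protein Z, were read beside them. Of 17 measured, 3 rose and 1 fell in pregnancy, with a median difference of 0.20. The shares of all genes that rose and fell were 5.46% and 8.25% in pregnancy. They were 2.41% and 0.879% postpartum against pregnancy, and 3.91% and 3.75% against pre-pregnancy. F11, coagulation factor XI, stood at 10.56 and 10.59 before pregnancy, 11.81 on both pregnant arrays, and 10.72 and 10.75 postpartum. Its rise was 1.24 ± 0.0962 (adjusted p = 0.000735) and its fall postpartum -1.07 ± 0.0962 (adjusted p = 0.00280), and both calls held with each array left out. F10, coagulation factor X, rose by 1.04 ± 0.114 (2.06-fold, adjusted p = 0.00255, 6 of 6 fits with an array left out). Prothrombin, F2, rose by 0.38 ± 0.0966 (adjusted p = 0.0390), a call kept in 0 of 6 such fits. Proz, protein Z, the cofactor of the Serpina10 product, differed by 0.21 ± 0.104 (adjusted p = 0.212). The rises of F10 and F11 were called and that of Serpina10 was not, and the difference between them was not tested. Gzmb, granzyme B, a target of the Serpina3n product, fell near background from 5.24 and 5.14 to 4.32 and 4.34 (adjusted p = 0.00291), so no fold is given. The neutrophil protease genes Elane, Prtn3 and Ctsg stayed between 4.30 and 5.64 on every array and gave no call. Klk7, the protease that the Serpina12 product inhibits, was near background at 4.74 to 4.99. Klk1, the tissue kallikrein, differed by 0.38 ± 0.127 (adjusted p = 0.0879). Postpartum against pregnancy F11 was the 1 call of the list, and against pre-pregnancy F10 was higher (0.58 ± 0.114) and Gzmb lower. Each of these last calls held in 2 of 6 fits with an array left out.

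Of 16 measured genes of corticosteroid action, 3 rose and 4 fell in pregnancy, with a median difference of -0.08. Of all genes, 5.46% rose and 8.25% fell in pregnancy, 2.41% and 0.879% postpartum against pregnancy, and 3.91% and 3.75% postpartum against pre-pregnancy. Nr3c1, the glucocorticoid receptor, stood at 10.96 and 10.66 on the pre-pregnancy arrays, 10.17 and 10.01 on the pregnant arrays and 10.15 and 9.87 on the postpartum arrays. It fell in pregnancy (-0.72 ± 0.147, adjusted p = 0.0198) and was lower postpartum than before pregnancy (-0.80 ± 0.147, adjusted p = 0.0208). With each array left out in turn, the first of these calls held 4 of 6 times and the second 3 of 6. Its level was thus lower at the stage where Serpina6 was highest. It was also lower postpartum, where Serpina6 stood at 12.77 to 13.47, above its 12.37 and 12.49 before pregnancy. Fkbp5, a receptor cochaperone whose gene glucocorticoids induce, had stage means of 10.64, 11.13 and 9.96. It rose by 0.49 ± 0.105 in pregnancy (adjusted p = 0.0235, kept in 3 of 6 fits with an array left out) and fell postpartum against pregnancy (-1.17 ± 0.105, adjusted p = 0.00280, kept in 6 of 6). The metallothioneins Mt1 (1.12 ± 0.120) and Mt2 (1.04 ± 0.186), which glucocorticoids and metals both induce, were the other rises, kept in 6 and 3 of 6 fits. Fkbp4 (-0.94 ± 0.164), Dusp1 (-0.81 ± 0.142) and the steroid 5-beta-reductase Akr1d1 (-0.63 ± 0.146) also fell, with calls kept in 4, 4 and 3 of 6. Hsd11b1, which regenerates active glucocorticoid in liver, differed by -0.06 ± 0.131 (adjusted p = 0.807). Postpartum against pregnancy 3 of the 16 fell and 0 rose: Mt2 (-2.79 ± 0.186), Mt1 (-1.31 ± 0.120) and Fkbp5, each kept in 6 of 6. Against pre-pregnancy 4 fell and 0 rose: Mt2 (-1.75 ± 0.186, 5 of 6), Zbtb16 (-1.42 ± 0.315, 2 of 6), Nr3c1 and Fkbp5 (-0.68 ± 0.105, 2 of 6).

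Of 15 measured genes of thyroid hormone action, 1 rose and 3 fell in pregnancy, with a median difference of -0.27. The shares of all genes that rose and fell were 5.46% and 8.25% in pregnancy. They were 2.41% and 0.879% postpartum against pregnancy, and 3.91% and 3.75% against pre-pregnancy. Dio1 is the hepatic deiodinase that converts thyroxine. It stood at 12.51 and 12.50 on the pre-pregnancy arrays, 11.90 and 11.94 on the pregnant arrays and 11.39 and 11.38 on the postpartum arrays. Its 3 stages did not overlap. It fell in pregnancy (-0.58 ± 0.0962, adjusted p = 0.00985) and stood lower still postpartum against pre-pregnancy (-1.12 ± 0.0962, adjusted p = 0.00189). With each array left out, the first call held 4 of 6 times and the second 6 of 6. The uptake carrier Slco1b2 fell (-0.51 ± 0.110), as did Me1 (-1.25 ± 0.235), and Klf9 rose (0.86 ± 0.129). These calls held in 3, 4 and 5 of 6 such fits. The receptor gene Thrb differed by -0.13 ± 0.119 (adjusted p = 0.497). Postpartum against pregnancy Me1 rose (1.70 ± 0.235, 4 of 6), and Klf9 (-0.83 ± 0.129, 1 of 6) and Dio1 (-0.54 ± 0.0962, 0 of 6, adjusted p up to 0.153) fell. Against pre-pregnancy Dio1 and the uptake carrier Slco1a1 (-0.51 ± 0.111, 2 of 6) fell, and 0 rose.

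**Figure D4:**
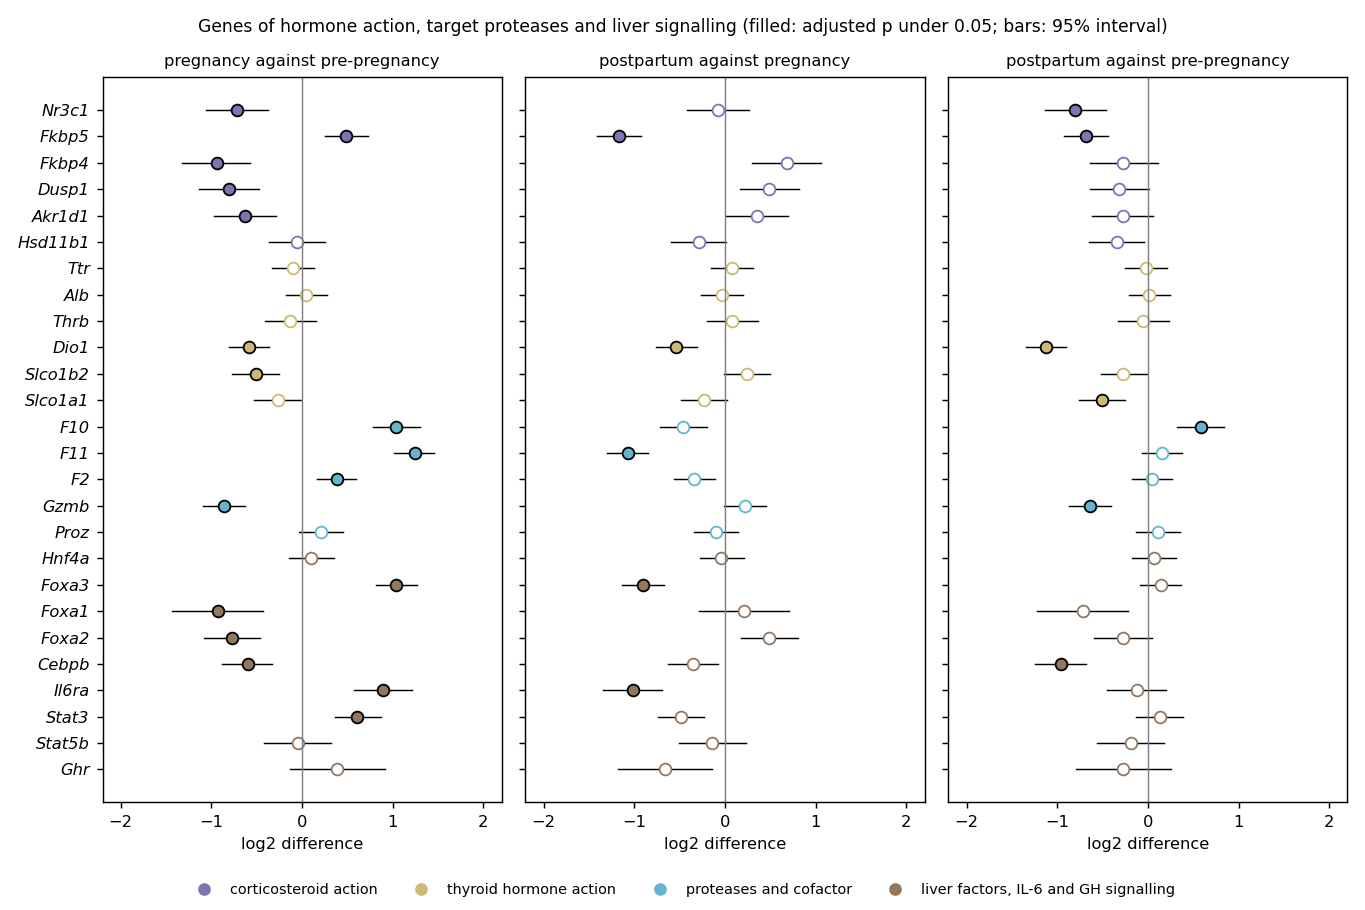
Log2 difference (x axis) with 95% interval for genes of corticosteroid action, thyroid hormone action, target proteases and liver signalling (rows, coloured by group) in the 3 comparisons (panels); filled points passed an adjusted p of 0.05. F10, F11, Foxa3 and Il6ra lie to the right in pregnancy, and Nr3c1 and Dio1 to the left in both comparisons with pre-pregnancy.

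Transcription factors and cytokine and hormone receptors of hepatocytes were also read. Of 22 measured genes of this list, 3 rose and 5 fell in pregnancy, with a median difference of -0.02. Of all genes, 5.46% rose and 8.25% fell in pregnancy, 2.41% and 0.879% postpartum against pregnancy, and 3.91% and 3.75% postpartum against pre-pregnancy. Foxa3 rose by 1.04 ± 0.0994 (adjusted p = 0.00167, 6 of 6 fits with an array left out), whereas its relatives Foxa1 (-0.93 ± 0.215, 3 of 6) and Foxa2 (-0.77 ± 0.135, 5 of 6) fell. Il6ra, the interleukin 6 receptor that starts the acute phase response, stood at 9.42 and 9.29 on the pre-pregnancy arrays, 10.09 and 10.40 on the pregnant arrays and 9.34 and 9.12 on the postpartum arrays. Its rise of 0.89 ± 0.140 (adjusted p = 0.00839) held in 4 of 6 fits with an array left out. Stat3, which acts downstream of that receptor, rose by 0.61 ± 0.112 (adjusted p = 0.0133, 3 of 6). The oestrogen receptor gene Esr1 fell (-1.36 ± 0.206, adjusted p = 0.00749, 5 of 6). Cebpb (-0.60, and -0.71 to -0.50 with each array left out) and Prox1 (-0.46, and -0.47 to -0.44) were the other falls. Hnf4a (0.10 ± 0.105), Cebpa (0.34 ± 0.109), Stat5b (-0.05 ± 0.161) and Ghr (0.39 ± 0.227) were not called in pregnancy. Postpartum against pregnancy Il6ra (-1.01 ± 0.140, 4 of 6) and Foxa3 (-0.90 ± 0.0994, 5 of 6) fell and 0 of the 22 rose. Against pre-pregnancy Cebpa rose (0.54 ± 0.109, 2 of 6), and Esr1 (-1.18 ± 0.206, 2 of 6), Cebpb (-0.96 ± 0.121, 5 of 6) and Prox1 (-0.66 ± 0.111, 3 of 6) fell.

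Among 704 genes whose stage means span at least 1 on the log2 scale, those with the pattern most like that of Serpina6 over the 6 arrays were Tpm2 (Pearson r = 0.986), a tropomyosin gene, Treh (0.979), which encodes trehalase, and Ocstamp (0.978). Tpm2 stood at 6.38 and 6.48, 7.66 and 7.65, and 6.90 and 6.46. For Serpina7 the highest were Pkhd1 (0.82), Pctp (0.78) and Fam72a (0.68), among 705 genes. These correlations describe 6 arrays that share stages and a normalization, and they carry no test.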

How the data were processed

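Liver RNA (250 ng, biotin-labelled) from 3 stages was hybridised to 6 Affymetrix mouse arrays, per the labels' protocols. The deposited table holds 45101 probe sets as log2 values; the submitters' processing notes name RMA and Affymetrix Power Tools, with no version or settings. The log2 base was inferred from the range of values. RMA usually gives arrays a common distribution, which removes a change shared by most genes and compresses differences near background. The platform annotation gave 34945 probe sets a single symbol and 932 several; 9160 had none and 64 were controls. The gene table served to update symbols (0 changed).

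Tests were run in R 4.3.3 with limma 3.58.1, by lmFit on group means and eBayes, over all 6 arrays, with Benjamini-Hochberg adjustment over 18193 genes, two-sided, threshold 0.05; 3 residual and 4.80 prior degrees of freedom. SE is the moderated standard error. Alternatives were a replicate block, no dim genes (under 5.51), 2 other scalings, a trended, robust variance, the mean of probe sets, every probe set, each array left out, only the 2 groups compared and a threshold of 0.1. Leaving out an array assumes that the single one left in its group varies as the others do. The members and gene lists were chosen with earlier results of these data known, so counts set beside all genes are no test. All members were named, with up to 4 called genes of largest change per list and comparison. A fixed set of carriers, receptors and factors was also named. Genes outside that rule were named after their values were seen. These were Proz, Serpina1b, Serpina1c, Serpina9, Serpinc1, Elane, Prtn3, Ctsg, Klk7, Klk1, Hsd11b1, Akr1d1 and Foxa2. Tsc22d3, Per1, Sgk1, Tat and Pck1 were named in the same way, as were single cell type markers. No sample had identical values to another, and the number of arrays limits the precision.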

Additional observations from a re-analysis of the deposited data

How the results depend on the processing

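In pregnancy 4 of the 7 genes were called, 3 with only the 2 groups compared, 2 to 4 over the arrays left out and 4 under each other alternative. Postpartum against pregnancy it was 3, with 1 to 3 over the arrays left out and 1 with only the 2 groups compared. Postpartum against pre-pregnancy it was 1, with 0 to 2 over the arrays left out, 2 with the replicate block, 2 with a trended, robust variance, 2 with only the 2 groups compared and 4 at a threshold of 0.1. Same-numbered arrays deviated together, over all genes, at correlations of 0.028, 0.111 and -0.027, which shows no pairing shared by most genes. These values cannot exclude an effect shared by some genes, and the labels state no pairing. The replicate block changed 1 member call, that of Serpina11 postpartum against pre-pregnancy (adjusted p = 0.0488). Signs turned only for differences not called: Serpina4-ps1 postpartum against pregnancy was 0.09 with the mean of its probe sets, 0.34 with another probe set and -0.77 to 0.71 over the arrays left out. Over the arrays left out, Serpina12 there was -0.26 to 0.07, and Serpina7 -1.06 to 0.84 in pregnancy, -0.47 to 1.43 postpartum against pregnancy and -0.47 to 1.21 postpartum against pre-pregnancy. Of all genes, 2494, 599 and 1393 were called in the 3 comparisons, 323 to 1977, 114 to 528 and 73 to 1582 with an array left out, and 203 rather than 599 with only the 2 groups compared. Other scalings moved the median of all genes by 0.02 or less and changed no member call. A trended, robust variance exchanged called genes even where the count was unchanged. In pregnancy Serpina4-ps1 was lost (limma adjusted p = 0.0624) and Serpina10 gained (0.0460). Postpartum against pregnancy Serpina6 was lost (0.0566) and Serpina10 gained (0.0466). Against pre-pregnancy Serpina11 (0.0477) and Serpina3n (0.0360) were gained, and Serpina4-ps1, the 1 main call, was lost (0.0824). The cause of these differences was not tested.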
